A study of Mus musculus with 27 samples.

Results

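Heat shock chaperones are proteins that hold or refold other proteins, and 10 of their genes were followed here: Hspa1a and Hspa1b, Dnajb1, Hsph1, Hspb1, Hsp90aa1, Hspa8, Hspd1, Hspe1 and Hsf1. They were taken by symbol from a table of 36333 genes, and all 10 were found and passed the filter on low values in each tissue. The genes were chosen because their levels vary widely among single 5-month muscles, so what they show in muscle between the ages is a description, and no test of it is given. Levels were measured by RNA-seq in MlxKO mice, in which Mlx, a transcription factor of the extended Myc network, was targeted for deletion in the whole body.

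All the mice were male and carried the same alleles: floxed Mlx on both chromosomes and 2 copies of a CreER transgene at the ROSA26 locus, which is active in most cell types and needs tamoxifen. Each mouse received 5 daily intraperitoneal injections of 75 mg/kg tamoxifen in oil at weaning, once it weighed at least 15 g. The groups were defined by tissue and age: liver, omental (abdominal) adipose tissue and skeletal muscle, each from 4 mice at 5 months and from 5 mice at 20 months, 27 samples in all. The 4 younger mice, called A to D here in the order of the numbers in the sample names, gave all 3 tissues, whereas the numbers of the older samples are not shared. The labels give 20 months for the older mice, and this is used throughout, but their sample names hold X18, and the study's list of mice also has the lower age, so they may have been 18 months old. The study's own excision check found residual Mlx in skeletal muscle well above that in liver, so the deletion was incomplete in muscle. Residual Mlx also varied among mice, and in muscle and adipose tissue it tended to be higher in the older mice. Among the younger muscles here it was lowest in mice B and D. Whether it has a part in the results was not tested. WT mice were not analysed here, so nothing below separates age from an effect of the deletion.

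Samples held 14384695 to 25673919 reads on genes. Mlx itself had 101 to 522 reads per sample, and without WT samples this is no check of the deletion. Marker genes fitted the labelled tissues: the summed level of 6 skeletal muscle genes was 127742 to 162467 in muscle and at most 0.56 in liver, that of 6 hepatocyte genes was 45628 to 168560 in liver, and that of 6 adipocyte genes was 6057 to 13587 in adipose tissue against at most 440.0 elsewhere. Adipose samples also held skeletal muscle genes, at a summed 328 to 851 at 5 months and 102 to 572 at 20 months. Hepatocyte genes summed to 235 and 141 in the 20-month adipose samples 36 and 38, against 3.11 to 59.9 in the other adipose samples. One 5-month muscle, from mouse C, also had hepatocyte genes at a summed 347, against 0.143 to 65.2 in the other 8 muscles, and that from mouse A had slow fibre genes at a summed 1957, against 218 to 599 in the others. Values are reads per gene scaled to library size and by 1 further factor per sample. They are referred to as values below, and only those given per kilobase can be compared between genes.

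Cells raise the inducible ones of these genes when proteins unfold. The factor Hsf1 is then freed from chaperones, forms trimers and binds heat shock elements, inverted repeats of the unit GAA that lie before its target genes. Hspa1a and Hspa1b encode the inducible HSP70, a pair of near-identical neighbouring genes, Dnajb1 the J-domain partner that hands it clients, Hsph1 an exchange factor that releases them, Hspb1 a small heat shock protein abundant in muscle, and Hsp90aa1 the inducible HSP90. Hspa8 is the constitutive HSP70. Hspd1 and Hspe1 encode HSP60 and HSP10, the chaperonin and its lid in the mitochondrial matrix.

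Promoter windows of 300 bases were given for 7 of the 10 genes (RefSeq, GRCm38.p6). The 250 bases before the starts of the HSP70 pair are shown because the pair differed most and its reads are hard to tell apart. They lie on the minus strand at chr17:34959239-34959488 for Hspa1b and chr17:34972157-34972406 for Hspa1a, and capitals mark a letter match to 2 heat shock units.
Hspa1b: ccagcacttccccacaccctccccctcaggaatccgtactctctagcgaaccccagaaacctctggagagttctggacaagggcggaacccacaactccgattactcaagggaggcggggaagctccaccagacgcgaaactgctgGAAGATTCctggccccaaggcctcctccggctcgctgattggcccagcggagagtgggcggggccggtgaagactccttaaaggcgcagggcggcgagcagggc
Hspa1a: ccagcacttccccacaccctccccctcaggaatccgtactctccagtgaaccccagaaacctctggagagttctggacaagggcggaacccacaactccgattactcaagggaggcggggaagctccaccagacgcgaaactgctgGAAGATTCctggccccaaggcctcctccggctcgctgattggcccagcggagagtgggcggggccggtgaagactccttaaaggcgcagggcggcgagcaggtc
Counted from the 5′ end with the Hspa1b base first, the full windows differ at 4 of 300 bases: T44C, C47T, G249T and T276C. The match lies 104 bases before either start. Hspd1 and Hspe1 stand head to head on chromosome 1, and 1 of the 2 Hspd1 windows overlaps the Hspe1 window by 285 bases. A run of heat shock units in that stretch, at chr1:55088053-55088082 on the plus strand, is shown because it lies before the Hspe1 start and inside the annotated Hspd1 gene, before the more internal of its 2 starts.
Hspe1: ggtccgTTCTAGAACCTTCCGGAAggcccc
Matches of 2 units were sought on both strands as GAANNTTC or TTCNNGAA, and matches of 3 units, which contain them, as GAANNTTCNNGAA or TTCNNGAANNTTC. The Hspe1 window held 3 and 2 of these, the first 89 bases before its start. The Hspb1 window held 2 matches of 2 units, and each Hsph1 window held 3, of which 1 pair formed a match of 3 units. No match was found in either Dnajb1 window, which says only that these letters are not in it. Of 32851 windows of this length, 15.1% held 2 units and 0.603% held 3.

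In skeletal muscle the inducible members were far higher in some 5-month mice than in any 20-month mouse. Hspa1a (chromosome 17, 34969359 to 34972156, minus strand) had values of 120.2, 4176, 168 and 1085 in the 5-month mice A, B, C and D, and of 57.96, 18.5, 18.4, 26.8 and 22.1 in the 20-month mice 56 to 60. All 5-month muscles were above all 20-month muscles, and the 5-month muscles themselves spanned 34.8-fold. Hspa1b (chromosome 17, 34956429 to 34959238, minus strand) had values of 106, 4038, 139 and 1071 at 5 months and 47.0, 12.3, 11.4, 13.4 and 15.1 at 20 months. The order of the 5-month muscles was that of Hspa1a, and the ratio of the median at 5 months to that at 20 months was 28.4 for Hspa1a and 45.2 for Hspa1b. In bulk tissue, fewer cells of a type and less RNA per cell cannot be told apart.

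The partners of HSP70 followed the same muscles. Dnajb1 (chromosome 8, 83608175 to 83612653, plus strand) had values of 23.6, 692, 15.5 and 88.4 at 5 months and 10.6, 5.85, 6.87, 5.44 and 9.19 at 20 months. Mouse B was 44.6-fold above mouse C, a wider span among 4 muscles of 1 age than for any other member. Hsph1 (chromosome 5, 149616843 to 149636498, minus strand) had values of 101, 252, 90.8 and 104 at 5 months and 90.7, 81.3, 67.7, 67.3 and 66.1 at 20 months. Its ages do not overlap, but the lowest younger muscle and the highest older one, from mouse 56, lay next to each other.

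Hspb1 (chromosome 5, 135887919 to 135889563, plus strand) had values of 1112, 3823, 1548 and 2746 at 5 months and 911, 341, 257, 378 and 311 at 20 months. Per kilobase of exon it was the highest of the 10 in muscle at both ages, with medians of 2082 and 331. Hsp90aa1 (chromosome 12, 110691036 to 110696395, minus strand) had values of 119, 1318, 108 and 331 at 5 months and 123, 60.4, 57.5, 68.3 and 66.2 at 20 months. Its ages overlap, because mouse 56 lay above mice A and C. Hspa8 (chromosome 9, 40801276 to 40805202, plus strand) had values of 1448, 4119, 1868 and 2768 at 5 months and 1811, 1173, 1162, 1169 and 1178 at 20 months. The constitutive gene thus had the same muscles at its top, B and then D, over a span of 2.84-fold, and its older values lay between 1162 and 1178 except in mouse 56.

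The mitochondrial pair and the factor varied less. Hspd1 (chromosome 1, 55077833 to 55088243, minus strand) had values of 223, 356, 233 and 222 in the 5-month muscles and of 217 to 254 in the 20-month muscles. Hspe1 (chromosome 1, 55088148 to 55091317, plus strand) had values of 48.5, 110.4, 75.1 and 47.0 at 5 months and of 51.2 to 58.7 at 20 months. For both, mouse B was highest. The other younger muscles lay in or near the range of the older ones for Hspd1, whereas for Hspe1 mouse C was also above that range. Hsf1 (chromosome 15, 76477362 to 76501155, plus strand) had values of 53.2, 51.2, 53.9 and 46.8 at 5 months and of 38.3 to 46.5 at 20 months. It spanned only 1.15-fold among the younger muscles, mouse B was not its highest, and its ages do not overlap.

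**Figure D1:**
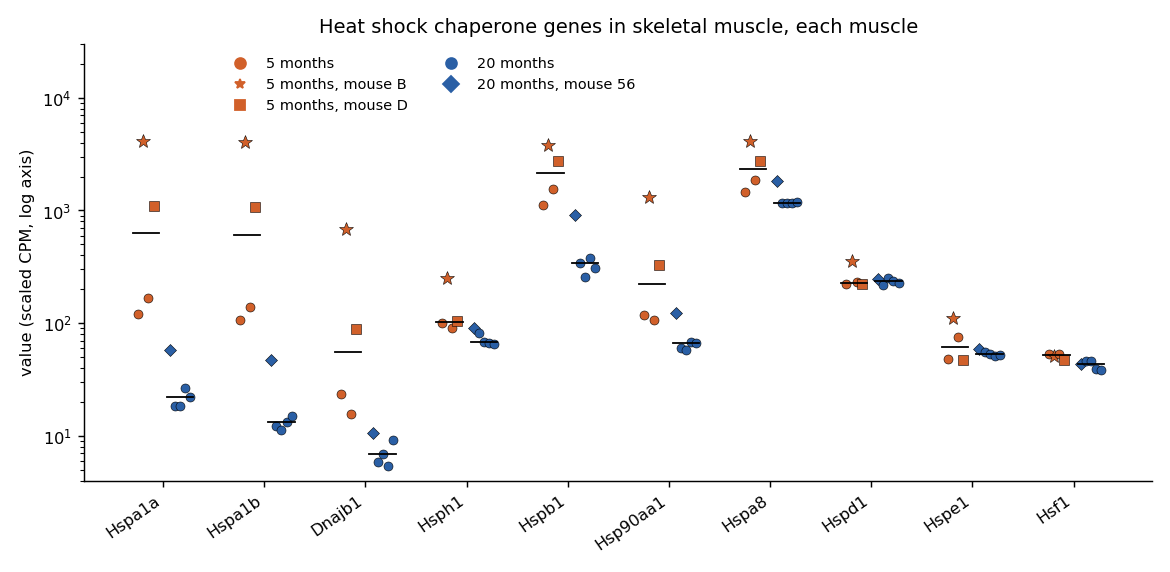
Values of the 10 genes in each skeletal muscle on a log axis, with 5-month muscles in orange and 20-month muscles in blue and a line at each group's median. Mouse B (star) is highest for 9 of the 10 genes, and mouse D (square) is next for the inducible genes. Mouse 56 (diamond) lies above the other older muscles for both HSP70 genes, Dnajb1, Hsph1, Hspb1, Hsp90aa1 and Hspa8, and narrowly for Hspe1.

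In muscle 6 of the 10 members did not overlap between ages, all of them lower at 20 months, where 8.64% of the 12720 genes tested were lower without overlap. Since this contrast chose the members, nothing is read from that count. On the log2(value + 1) scale, which understates low genes, the 20-month minus 5-month difference was -4.36 for Hspa1a, -4.82 for Hspa1b, -3.08 for Dnajb1, -2.39 for Hspb1, -1.91 for Hsp90aa1 and -0.88 for Hspa8. Without mouse B the differences were -3.38, -3.82, -1.98, -2.09, -1.16 and -0.61. That of Hspd1 went from -0.11 to 0.05. Over the 10 members the median was -1.40, and -0.89 without mouse B, beside 0.02 over all genes tested. Leaving out this single muscle thus made each of these differences smaller.

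Other chaperone genes were grouped by class, and some stand in more than 1 list, so the counts overlap. These lists were chosen with earlier results of these data known. Their muscle tests use the same muscles whose values chose the members, so they are no independent support. Of 18 other heat-inducible genes, 7 fell with age in muscle and none rose, with a median log2 difference of -0.51 (limma, Benjamini-Hochberg adjusted p under 0.05; 19.3% of all genes were called, 10.1% as lower). Hmox1, which encodes the heme-degrading enzyme heme oxygenase 1, went from 58.1 ± 45.9 (SD, n = 4) to 10.4 ± 1.72 (n = 5), a log2 difference of -1.96 ± 0.47 (SE; limma adjusted p = 0.0173). Its younger muscles were 91.4, 104, 19.3 and 17.7 in mice A, B, C and D, so that mouse A, low for HSP70, was near the top. Cryab, the small heat shock protein αB-crystallin, had values of 1156, 4422, 2084 and 2810 at 5 months and 1515, 716, 541, 753 and 587 at 20 months (log2 difference -1.61 ± 0.37, limma adjusted p = 0.0138). Like the members, it was highest in mouse B, then D, and mouse 56 led the older muscles.

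The number of these genes called varied with the samples. It was 5 without the 5-month mouse B, 4 without 20-month mouse 57, 58 or 59, 3 without mouse 60 and 8 without the 5-month mouse A. Of 9 small heat shock protein genes other than Hspb1, 7 were tested and 4 fell, namely Cryab, Hspb8, Hspb7 and Hspb6. Cryab and Hspb8 were already counted among the heat-inducible genes. Hspb8, which works with the co-chaperone Bag3, fell by 1.27 on the log2 scale (limma adjusted p = 0.0256). Without mouse B, D, 57, 58 or 60, 2 genes of the small heat shock protein list were called. Hspb8 lost its call without B, D, 57, 58, 59 or 60 or with no filter. In 1 fit of all 27 samples Hspb7 and Hspb6 were not called (limma adjusted p of 0.0748 and 0.255). Hspb6 also lost its call with no filter or no variance trend. In the HSP70 list 1 of 19 fell, Bag3 itself, also a heat-inducible gene, from 714 ± 548 to 224 ± 48.1 (log2 difference -1.42, limma adjusted p = 0.0199). It was not called without mouse 60 or with no filter (limma adjusted p = 0.0503). Among 15 HSP90 genes, 2 fell, Fkbp5, a glucocorticoid-responsive co-chaperone, by 1.52 (limma adjusted p = 0.0148) and Unc45a, a myosin chaperone, by 0.44 (limma adjusted p = 0.0124).

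The remaining classes had calls in both directions or few. Among 32 J-domain genes 7 rose and 3 fell, and the largest differences were those of Dnaja4 (-1.25, limma adjusted p = 0.0424) and Dnajb4 (-0.97, limma adjusted p = 0.0394), both among the heat-inducible genes. Dnaja4 was not called in edgeR (adjusted p = 0.0508) or DESeq2 (adjusted p = 0.0611), and both genes lost their call without D, 57, 58, 59 or 60, Dnaja4 also without B or C. Both also lost it with no filter or no variance trend, and Dnaja4 in 1 fit of all 27 samples. Leaving out 1 muscle gave 2 to 9 risen and 0 to 3 fallen J-domain genes, with 0 fallen without mouse D, 58, 59 or 60. Of 12 mitochondrial chaperones and proteases 1 rose, the exchange factor Grpel2 (15.8 ± 2.17 to 21.3 ± 1.22, limma adjusted p = 0.0227), and 0 fell. The Grpel2 call was lost without mouse B, D or 60 and in 1 fit of all 27 samples. None of the 8 TRiC subunits, which form the cytosolic chaperonin, and none of the 3 tested heat shock factor genes was called. Their median log2 differences were 0.01 and 0.08.

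Other genes moved in the same muscles. Of 9 immediate early genes, which respond within minutes to stimuli, 8 were tested and 6 fell, including Atf3 (147, 780.5, 261 and 627 at 5 months against 242, 15.4, 17.4, 22.3 and 28.2 at 20 months). Their summed level was 716 to 2910 at 5 months and 303 to 930.4 at 20 months, with mice B and 56 at the top of their ages. Macrophage genes fell in 3 of 5 (summed 109.6 to 182 against 63.4 to 124) and red blood cell genes in 3 of 5 (summed 420.3 to 700 against 291 to 587), and 0 of 6 slow fibre genes was called. Without mouse B these counts were 4, 2 and 1, and over all muscles left out in turn they ran from 2 to 7, 2 to 4 and 1 to 4. The part of these in the results above was not tested.

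**Figure D2:**
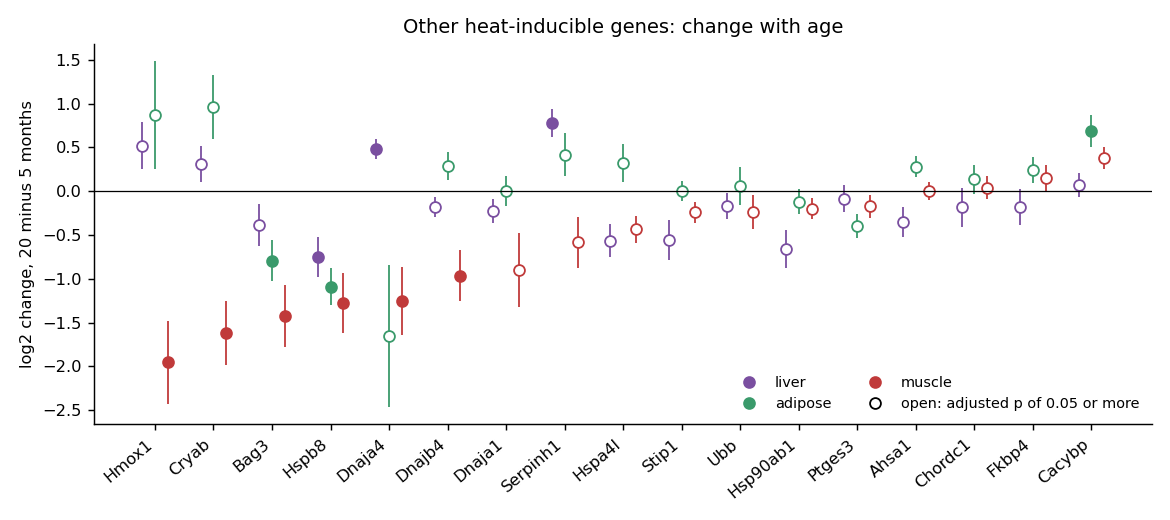
Log2 difference between 20 and 5 months, with its standard error, of 17 of the 18 further heat-inducible genes in liver, adipose tissue and muscle, ordered by the muscle value. Filled points passed the test (limma adjusted p under 0.05): 6 of those drawn in muscle, all below 0, and 3 each in liver and adipose tissue.

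In liver, Hspd1 was lower at 20 months. Hspd1 had values of 685, 705, 633 and 698 in the 5-month mice A, B, C and D, and of 524, 465, 447, 533 and 341 in the 20-month mice 16, 17, 18, 19 and 74. The ages do not overlap, and the mean went from 680.3 ± 32.5 (SD, n = 4) to 462 ± 77.0 (n = 5), a log2 difference of -0.57 ± 0.14 (SE; limma adjusted p = 0.0215). It was the only member called in liver, 1 of 10, where 19.8% of 12654 genes were called. The call was lost without the 5-month mouse A or B or the 20-month mouse 18, with adjusted p of 0.0527, 0.0599 and 0.0554. The further factor per sample also differed between the liver ages. Values summed to 1319547 to 1395315 at 5 months and 952696 to 1233458 at 20 months, and the liver age differences rest in part on it. Unscaled Hspd1 reads overlapped, at 8724 to 10761 and 6807 to 10299, in libraries of 17200431 to 20734388 and 19007751 to 24179928 reads.

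Its partner Hspe1 had values of 157, 149, 182 and 169 at 5 months and 136, 127, 123, 158 and 103 at 20 months. The log2 difference was -0.35 ± 0.13, which did not pass (limma adjusted p = 0.0699), and mouse 19 lay within the younger range. Hspa9, the mitochondrial HSP70 and no member, fell from 867 ± 43.1 to 544 ± 126 without overlap (log2 difference -0.71, limma adjusted p = 0.0246). Of the 12 mitochondrial chaperones and proteases 3 fell and 0 rose, and of the 8 TRiC subunits 5 fell, Tcp1 by 0.61 (limma adjusted p = 0.0281) and Cct6a by 0.53 (limma adjusted p = 0.0383). The list medians were -0.15 and -0.41, beside 0.0011 over all genes. These counts rest on single livers: 0 TRiC genes were called without mouse A, B, C, 17 or 18, and 0 of the mitochondrial list without mouse A, B, D or 18. Hspa9 lost its call without A, B, D or 18, and Tcp1 without A, B, C, 17 or 18. Cct6a lost it without A, B, C, D, 17 or 18 or with no filter. The HSP70 list had 3 of 19 genes down, with Hspa9 counted again. Among them was St13, an HSP70 cofactor (172 ± 22.6 to 115 ± 9.54, limma adjusted p = 0.0108), which stayed called whichever liver was left out.

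Further liver genes were called singly. The co-chaperone Fkbp5 fell by 1.61 (limma adjusted p = 0.0218), and the HSP90-associated Ppid by 0.61 (limma adjusted p = 0.0143), both on the log2 scale. Among J-domain genes 2 rose and 5 fell, Dnajc13 by 0.56 (limma adjusted p = 0.0104), while Dnajc4 rose by 0.55 (limma adjusted p = 0.0247). Clpx, a mitochondrial unfoldase, fell by 0.62 (limma adjusted p = 0.0468). Of the 18 other heat-inducible genes, 2 rose and 1 fell: Serpinh1, the collagen chaperone HSP47, rose from 8.36 ± 1.30 to 15.2 ± 3.07 (limma adjusted p = 0.0120), Dnaja4 rose by 0.48 (limma adjusted p = 0.0178), and Hspb8 fell by 0.75 (limma adjusted p = 0.0408). Hsf2bp, an HSF2-binding protein, rose from 0.51 ± 0.42 to 2.72 ± 1.71 (limma adjusted p = 0.0248). Its younger livers were near the floor, at 0.285 to 1.15, where 1 read was worth 0.064 to 0.080. It met the filter through the 20-month livers (1.05 to 5.41). Of these calls, those of Ppid, Dnajc13, Serpinh1 and Dnaja4 stood whichever liver was left out, although Dnaja4 was not called in 1 fit of all 27 samples. That of Clpx was lost in 8 of 9 such fits, all but the one without liver 16, and with no filter or no variance trend. That of Dnajc4 was lost without A, B, D, 17, 18 or 19, that of Hspb8 without A, B, C, 17, 18 or 74, that of Hsf2bp without B, C, D or 18, and that of Fkbp5 without A or 18. With no filter the calls of Dnajc4 and Hspb8 were lost as well. That of Hspb8 also failed with no variance trend, sample weights or 1 fit of all 27 samples.

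The inducible members varied among livers without an age call in the main fit. Hspa1a had values of 7.57, 3.71, 0.21 and 0.24 at 5 months and 1.22, 1.25, 0.27, 1.02 and 0.70 at 20 months, a log2 difference of -0.59 ± 0.53 (limma adjusted p = 0.439). Hspa1b had values of 146, 75.9, 20.2 and 23.4 at 5 months and 75.7, 20.2, 23.7, 30.8 and 14.4 at 20 months. The 5-month livers fall in 2 pairs, A and B above C and D, and the log2 difference with age was -0.77 ± 0.59 (limma adjusted p = 0.361). Hsp90aa1 had values of 400.0, 577, 293 and 265 at 5 months and 324, 224, 159, 252 and 103 at 20 months, a log2 difference of -0.88 ± 0.32 (limma adjusted p = 0.0717). It was called in DESeq2 (adjusted p = 0.0296) and without liver 16 (limma adjusted p = 0.0246). Over all alternatives its adjusted p ran from 0.0246 to 0.189. Hsph1 was 93, 157, 48.5 and 52.0 in the younger and 27.1 to 73.2 in the older livers (-0.70 ± 0.36, limma adjusted p = 0.183). Hspa8 was highest in mouse B, at 4166, and 1199 to 2359.7 in the other 8 livers (-0.58 ± 0.26, limma adjusted p = 0.136). Hspb1 ranged from 15.1 to 182, Dnajb1 from 21.8 to 42.7 and Hsf1 from 14.1 to 23.1, with log2 differences of -0.55, -0.07 and 0.01 (limma adjusted p of 0.523, 0.827 and 0.976).

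Liver 74 was lowest of all 9 livers for 9 of the 10 members, all but Hspa1a. It was also lowest for hepatocyte genes, whose summed level was 107676 to 168560 at 5 months and 45628 to 99239 at 20 months, without overlap, with 2 of 6 called lower. B cell genes rose in 5 of 5 (summed 2.18 to 8.24 against 9.97 to 19.7) and red blood cell genes in 4 of 5 (summed 664 to 842 against 953 to 1257). Without 1 liver, the counts were 3 to 5 and 1 to 5. Of 7 immediate early genes tested, 3 rose and 0 fell (summed 173 to 248 against 216 to 516, and 1 to 3 risen without 1 liver). The part of these in the liver results was not tested.

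In adipose tissue the HSP70 pair varied less than in the other tissues. The 2 genes stayed between 6.87 and 13.2 (Hspa1a) and between 11.6 and 23.3 (Hspa1b) over all 9 samples, and their log2 differences with age were -0.12 ± 0.20 and -0.19 ± 0.22 (limma adjusted p of 0.656 and 0.540). Hsf1, with values of 31.4, 30.1, 30.9 and 21.8 at 5 months and 23.1, 18.8, 21.4, 19.6 and 22.3 at 20 months, was the only member called, 1 of 10, where 19.1% of 14005 genes were called. Its log2 difference was -0.41 ± 0.13 (limma adjusted p = 0.0487). Mouse D lay among the older samples, so the ages overlap. The call was lost without any 1 of the 20-month samples 37 to 40 or of the 5-month mice A, B and C, with adjusted p between 0.0748 and 0.134.

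The other members in adipose tissue were not called. Hspe1 had values of 27.1, 22.5, 31.8 and 43.3 at 5 months and 33.6, 46.6, 54.8, 32.9 and 38.8 at 20 months, a log2 difference of 0.41 ± 0.21 (limma adjusted p = 0.166). Hspd1 was 131 to 138 in the younger and 128 to 173 in the older samples (0.12 ± 0.12, limma adjusted p = 0.441). Dnajb1, with 22.9 to 27.3 at 5 and 19.2 to 23.7 at 20 months, had the lowest adjusted p of these (-0.25 ± 0.10, limma adjusted p = 0.0868). Hsp90aa1, Hspb1, Hspa8 and Hsph1 had log2 differences of -0.35, -0.34, -0.12 and 0.05 (limma adjusted p of 0.107, 0.210, 0.597 and 0.893).

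Single genes of the other lists changed in adipose tissue. Fkbp5 fell from 138 ± 36.8 to 35.8 ± 17.2 (log2 difference -1.98, limma adjusted p = 0.00948), and in this gene all 3 tissues had a call in the same direction. Hspb8 fell by 1.09 on the log2 scale (limma adjusted p = 0.0160) and Bag3 by 0.79 (limma adjusted p = 0.0433), 2 of the 18 other heat-inducible genes, while Cacybp rose by 0.69 (limma adjusted p = 0.0340). Among 32 J-domain genes 2 rose and 6 fell, Dnajc21, a ribosome biogenesis factor, by 0.77 (limma adjusted p = 0.0103), whereas Dnajb14 rose by 0.74 (limma adjusted p = 0.0330). Hspb2, a muscle-type small heat shock protein, rose from 1.28 ± 0.58 to 3.06 ± 0.79 (limma adjusted p = 0.0317), Hsf4 from 1.17 ± 0.37 to 2.65 ± 0.91 (limma adjusted p = 0.0438), and Clpx fell by 0.41 (limma adjusted p = 0.0352). None of the TRiC subunits was called. Leaving out 1 sample gave 0 to 6 risen and 1 to 6 fallen J-domain genes, with 1 fallen without mouse A or B or any of the samples 37 to 40. The calls of Fkbp5, Hspb8 and Dnajc21 stood whichever sample was left out. That of Bag3 was lost in 8 of 9 such fits, all but the one without mouse D, and also with no filter and in 1 fit of all 27 samples. Those of Cacybp, Dnajb14, Hspb2 and Clpx were lost without A, B or any of the samples 37 to 40, and that of Hsf4 without A, B, D, 38, 39 or 40. With no filter Cacybp, Dnajb14, Hspb2 and Hsf4 were not called either. Hspb2 and Hsf4 were low at 5 months, at 0.70 to 1.79 and 0.74 to 1.59, and met the filter through the 20-month samples.

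Beside these, B cell genes rose in 5 of 5 in adipose tissue (summed 5.39 to 21.7 against 18.1 to 189) and endothelial genes fell in 3 of 5 (summed 568 to 1275 against 351 to 672). Leaving out 1 sample, these counts ran from 0 to 5 and from 0 to 4. The B cell count was 0 or 1 without mouse A, B, 38, 39 or 40, and the endothelial count 0 or 1 without mouse A, B, C or any of the samples 37 to 40. Macrophage genes rose in 1 of 5 (summed 614 to 1413 against 861 to 4852, 0 to 5 risen without 1 sample), and red blood cell genes (724 to 1733 against 311 to 794) and mesothelial genes (61.4 to 132 against 34.9 to 71.9) fell in 2 of 5 each, and in 0 to 3 without 1 sample. Mouse D, the lowest of the younger samples for Hsf1, was also their lowest for endothelial genes. The part of these in the adipose results was not tested.

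**Figure D3:**
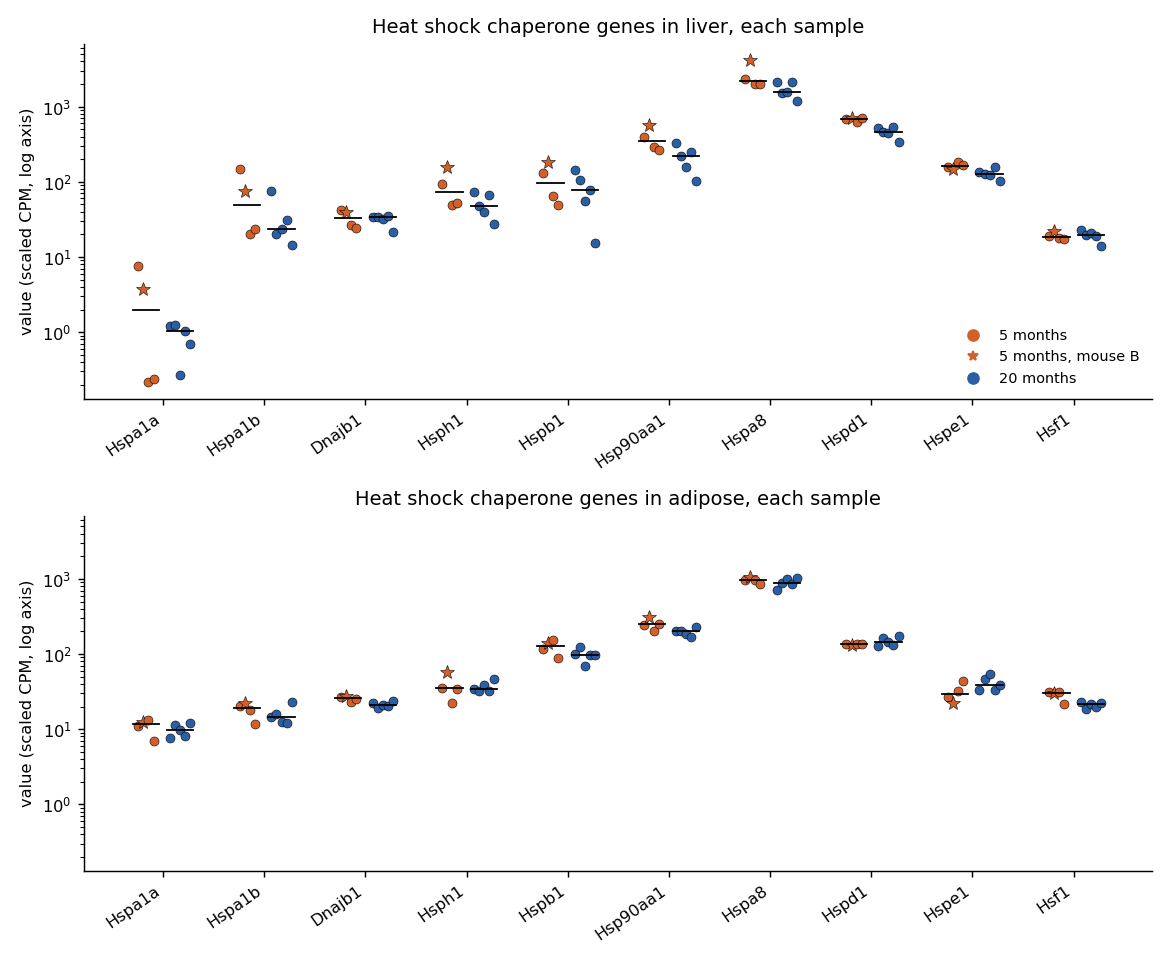
Values of the 10 genes in each liver and each adipose sample on log axes, 5-month samples in orange and 20-month samples in blue, with a line at each median. The HSP70 pair spreads widely among livers and little among adipose samples, and mouse B (star) is highest for 6 members among the younger livers and for 5 among the younger adipose samples.

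The 5-month mice allow the same animal to be followed across tissues. Mouse B was the highest of the 4 for 9 of 10 members in muscle, 6 of 10 in liver and 5 of 10 in adipose tissue. For the HSP70 pair, the muscle order was B, D, C, A, and the liver was led by A, the lowest muscle. Mouse D, whose muscle was second, had the lowest adipose values of both genes. These are 4 animals, and the orders are given without a test.

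The ages were compared between liver and adipose tissue by the difference of the log2 age differences. For Hspd1 this was -0.69 ± 0.18 (limma adjusted p = 0.0225), with the fall in liver and no call in adipose tissue. Its liver part rests on the further factor per sample, which differed between the liver ages. Hspd1 was the only member past the threshold, 1 of 10, where 11.5% of 14918 genes were called. For Hspe1 it was -0.76 ± 0.25 (limma adjusted p = 0.0567), and with the mouse as a block, since the younger tissues are paired, it was 0.0420 and 2 members were called, while every alternative tried gave between 0.00179 and 0.119. The age difference of Hspe1 was below 0 in liver and above 0 in adipose tissue, and neither passed. For the other 8 members the differences ran from -0.75 for Hsph1 to 0.42 for Hsf1, with limma adjusted p of 0.165 to 0.865. Muscle was not tested against the others, since muscle values chose the members.

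**Figure D4:**
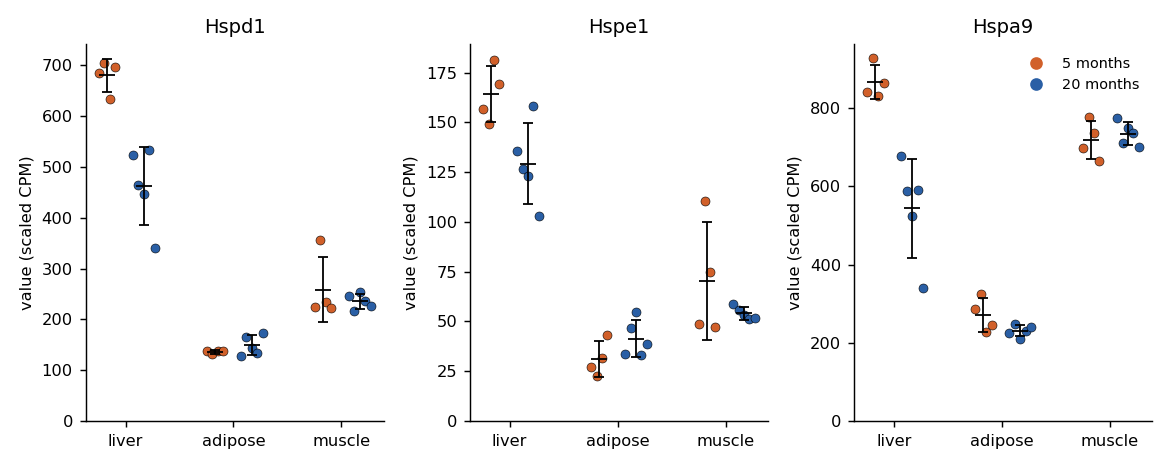
Values of Hspd1 and Hspe1, and of Hspa9 for comparison, in each sample by tissue and age, with the mean and standard deviation of each group in black. Liver is highest for all 3 genes at 5 months, and its 20-month values of Hspd1 and Hspa9 lie below all of its 5-month values.

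The levels of liver and adipose tissue were compared within an age. Values of a sample summed to 559419 to 646657 in adipose tissue and 1319547 to 1395315 in liver at 5 months. At 20 months the sums were 582357 to 641219 and 952696 to 1233458. The further factor per sample thus differed between the tissues, and the differences below rest on it. The 5-month fits took the paired tissues as separate samples, except where the mouse is named as a block. At 5 months 7 of 10 members were called, where 76.2% of all genes were, and at 20 months 5 of 10, where 76.1% were, so neither share is above that of all genes. Hspd1 was 680.3 ± 32.5 in liver and 136 ± 3.31 in adipose tissue at 5 months, a log2 difference of 2.32 ± 0.10 (limma adjusted p = 3.62e-08), and 1.62 ± 0.14 at 20 months (limma adjusted p = 8.2e-07). Hspe1 was higher in liver by 2.40 ± 0.18 at 5 months (limma adjusted p = 1.75e-06) and by 1.64 ± 0.16 at 20 months (limma adjusted p = 1.66e-06). No liver overlapped any adipose sample for either gene. Hspa8 was 2625 ± 1042 in liver and 963 ± 77.0 in adipose tissue at 5 months (limma adjusted p = 0.000776), and 1714 ± 413 and 889 ± 128 at 20 months (limma adjusted p = 0.00141). Its unscaled reads overlapped between liver and adipose tissue, at 24840 to 57276 and 28596 to 30067 at 5 months. At 20 months they were 23924 to 41679 and 22617 to 36049.

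For other members a difference passed at 1 age or neither, and whether it differed between ages is the comparison given above. Hsph1 was higher in liver at 5 months by 1.12 ± 0.39 (limma adjusted p = 0.0251, and 0.0514 to 0.0668 without either sample of mouse A, the liver of B or the adipose tissue of C) and by 0.37 ± 0.24 at 20 months, which did not pass (limma adjusted p = 0.167). Dnajb1 was higher in liver by 0.52 ± 0.13 at 20 months (limma adjusted p = 0.00376) and by 0.33 ± 0.18 at 5 months (limma adjusted p = 0.121). In unscaled reads it was 434 to 676 in the 20-month livers and 493 to 860 in the 20-month adipose samples, not higher in liver. Hsf1 was lower in liver at 5 months, 19.1 ± 2.31 against 28.5 ± 4.53 (limma adjusted p = 0.00671), and 19.4 ± 3.36 against 21.1 ± 1.80 at 20 months (limma adjusted p = 0.392). Hsp90aa1 differed by 0.55 ± 0.24 at 5 months (limma adjusted p = 0.0627, 0.0418 with the mouse as a block and 0.0276 to 0.147 over all alternatives) and by 0.02 ± 0.26 at 20 months. Hspb1 was called at neither age (-0.38 ± 0.38 and -0.58 ± 0.48, limma adjusted p of 0.386 and 0.282).

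The HSP70 genes went opposite ways. Hspa1a was lower in liver than in adipose tissue, with a log2 difference of -2.06 ± 0.60 at 5 months (limma adjusted p = 0.0107) and of -2.52 ± 0.19 at 20 months (limma adjusted p = 1.81e-07). Hspa1b was higher in liver by 1.41 ± 0.57 at 5 months (limma adjusted p = 0.0453) and by 0.82 ± 0.36 at 20 months (limma adjusted p = 0.0552). The sum of both was higher in liver by 0.80 ± 0.58 and 0.19 ± 0.35, and was called at neither age (limma adjusted p of 0.234 and 0.625). The 5-month call of Hspa1b was lost without any 1 adipose sample or the liver of mouse A or B, with adjusted p of 0.0535 to 0.114. Thus the call of Hspa1a and its direction do not hold for the pair.

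The share of the pair's reads assigned to Hspa1a was 1.01% to 5.83% in the 9 livers, 34.2% to 43.6% in the 9 adipose samples and 50.3% to 66.7% in the 9 muscles, with no overlap between tissues. In liver this rests on 3 to 119 reads of Hspa1a beside 284 to 2295 of Hspa1b. The 5-month livers of mice C and D had 3 reads of Hspa1a each, the limit that a count of 0 allows. The mean share was 34.8 percentage points lower in liver than in adipose tissue at 5 months (4 against 4 samples, exact two-sided permutation p = 0.0286, adjusted over 2 comparisons 0.0286) and 35.5 points lower at 20 months (5 against 5, exact permutation p = 0.00794, adjusted 0.0159). The 5-month test treats the tissues as separate mice, although both came from mice A to D. Permuted within these 4 pairs, all lower in liver, the exact two-sided p was 0.125, which is the smallest that 4 pairs can give, so the 5-month difference does not pass once the pairing is kept. The unpaired p are the smallest that groups of these sizes give, and the comparison was chosen after the values had been seen. Of all 50-base words in the exons of Hspa1b, 62.3% also occur in Hspa1a, and 58.8% of those of Hspa1a in Hspa1b, so how the counting placed shared reads can set the split.

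**Figure D5:**
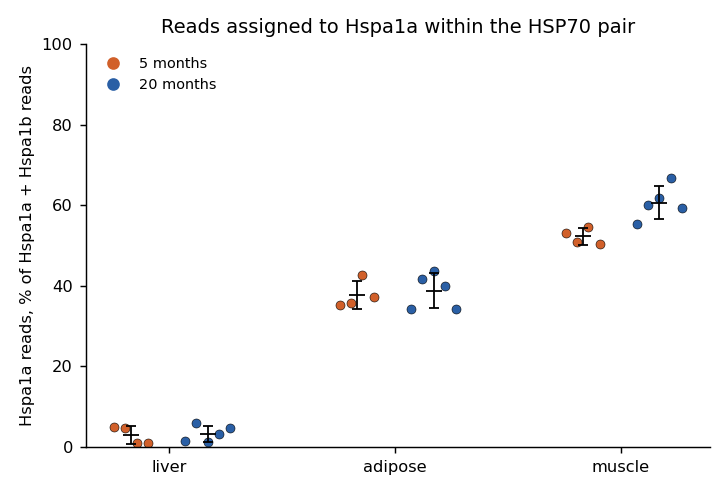
Reads assigned to Hspa1a as a percentage of the reads of Hspa1a and Hspa1b together, in each sample by tissue and age, with mean and standard deviation in black. The livers sit below 6%, the adipose samples between 34% and 44% and the muscles above 50%.

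Other members share exon sequence too. Words of 50 bases that also occur in other genes, mostly pseudogenes, made up 50.1% of Hspb1, 47.5% of Hsp90aa1, 42.1% of Hspd1, 39.4% of Hspa8, 22.8% of Hspe1 and 0.41% of Dnajb1, and 0% of Hsph1 and Hsf1. Levels of the former may be split with those copies. Hspd1 and Hspe1 overlap at their 5′ ends on opposite strands, and Gm20481 overlaps Hspa1a on the opposite strand. The library kit marked strand, but whether the counting used it is not given in the sources used here.

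The order of the members within a tissue was compared per kilobase of exon. In liver at 5 months the medians ran from 505 for Hspa8, 262 for Hspd1 and 111 for Hspe1 down to 2.58 for Hsf1 and 0.666 for Hspa1a. In adipose tissue at 5 months they ran from 224 for Hspa8 and 124 for Hspb1 down to 4.29 for Hsf1 and 3.96 for Hspa1a. In muscle at 5 months Hspb1 led with 2082, Hspa8 followed with 539, and Hspa1b (216) and Hspa1a (211) came next, which at 20 months stood at 4.77 and 7.45, ninth and seventh of the 10. The neighbours Hspa1b and Hspa1a in muscle at 5 months, and Hsf1 and Hspa1a in adipose tissue, overlapped across samples.

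Genes whose pattern was most like that of the HSP70 pair were named by Pearson's r over the 9 samples of a tissue, between log2(value + 1) of the gene and of the summed pair. In muscle these were Ankrd13a (r = 0.996), Fgf1 (0.994), Nup210 (0.990), Ahnak (0.988) and Ankrd10 (0.987). In liver they were Steap2 (0.956), Zdhhc2 (0.956), Gm16348 (0.955), Slc12a4 (0.953) and Ugcg (0.947), and in adipose tissue Yy1 (0.909), Kctd21 (0.900), Myo19 (0.880), Dis3l (0.871) and Nek3 (0.868). No gene was named in 2 tissues. The 9 samples of a tissue hold both ages, and these are the highest among all genes tested in a tissue, so they are a description only.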

How the data were processed

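Members and gene lists were chosen with earlier results of these data known. Libraries were made with a poly-T directional kit from RNAs purified at the same time and sequenced on a NovaSeq instrument. The authors used CLC Genomics Workbench for counting and deposited 1 signal per gene and sample, headed CPM but further divided by 1 unnamed factor per sample. Dividing by the smallest step of a sample turned 100% of its values into whole reads (within 0.01). No replicates were pooled, no columns were of other samples, and 0 of 48 same-group pairs were identical (chi-square per degree of freedom 9.81 to 217.5). Genome, annotation and strand setting of the counting are not given in the sources used here. Coordinates are RefSeq's on GRCm38.p6 by gene ID, and exons are GENCODE vM21.

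Groups follow the labels. The labels say 20 months for the older mice, whereas sample names hold X18 and the study also gives the lower age. Tests ran in limma 3.58.1 (R 4.3.3) with a variance trend on log2(value + 1), keeping genes that reached a value of 1 in 4 or more samples. Adjustment followed Benjamini and Hochberg, with a threshold of 0.05. p-values measure the spread between these samples. The 5-month liver and adipose samples entered as separate samples, with the mouse as a block only as an alternative. Ages were compared within a tissue (9 samples), liver with adipose tissue within an age, and the age differences of those tissues in 1 fit of 18 samples. At 5 months liver and adipose tissue came from the same mice, as the mouse numbers in the titles show (consensus correlation 0.138). On the recovered reads, edgeR 4.0.16 called 2578 genes in liver, 2692 in adipose tissue and 2453 in muscle. Genes named were all members, the 2 largest calls of each list per age comparison, Mlx, and the 5 genes most like the HSP70 pair per tissue. Immediate early genes, Hspb6, Hspb7, Dnaja4 and Hspb8 were also named where a count was given, after their values had been seen. Of the other heat-inducible genes, 1 enters the counts but is not reported singly here. Promoters of Hsp90aa1, Hspa8 and Hsf1 are not shown. The procedures were tested on simulated data.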

Additional observations from a re-analysis of the deposited data

Results flagged for a closer look

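In groups of 4 or 5 samples, single values were set against Dixon's 95% limits, which chance passes in about 1 group of 20. Muscle values chose the members, so that rate does not hold for the muscle groups, whose values are a description only. Of 60 groups (10 genes, 3 tissues, 2 ages), 12 had a value that stood apart. Of these, 5 were the 20-month muscle of mouse 56, highest for Hspa1a (57.96), Hspb1 (911), Hsp90aa1 (123), Hspa8 (1811) and Hspa1b (47.0). The 5-month muscle of mouse B stood apart for Dnajb1 (692), Hsph1 (252) and Hspd1 (356). For Hspa1a and Hspa1b it did not, because mouse D lay between it and the rest. The others were Hspa1b in 20-month liver 16 (75.7, highest), Dnajb1 in 20-month liver 74 (21.8, lowest), Hspd1 in 5-month adipose tissue of mouse B (131, lowest) and Hsf1 in 5-month adipose tissue of mouse D (21.8, lowest).

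The age difference of Hspd1 differed between liver and adipose tissue, by -0.69 on the log2 scale (limma adjusted p = 0.0225). Its liver part rests on the further factor per sample, as given above. All 20-month adipose samples were above the 5-month adipose mean of Hspe1 (log2 difference 0.41) and all 20-month muscles were below the 5-month muscle mean. That muscle mean rests on mice B (110.4) and C (75.1). Mice A (48.5) and D (47.0) lay below all 20-month muscles (51.2 to 58.7). Without mouse B the log2 difference in muscle was -0.04. The difference between adipose tissue and muscle was not tested.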

How the results depend on the processing

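For 90 single gene results, 1876 values were recomputed. Members in muscle have no test, so a value there was kept if its direction held and it shifted by less than the pooled SD. Elsewhere a value was kept if its direction and side of the threshold held. In all 1666 were kept, 154 lost a call, 27 gained one and 27 reversed. The other 2, for Dnajb1 in muscle, moved (-4.78 in edgeR and -4.81 in DESeq2). Reversed values without a call were, with sample weights, Dnajb1 (0.19) and Hspb1 (0.13) in liver and Hspa1a (0.10), Hspb1 (0.32) and Hspa1b (0.0075) in the liver minus adipose age difference, and Hsph1 in adipose tissue in edgeR (-0.0319) and DESeq2 (-0.0453). With the pair summed, Hspa1a in liver minus adipose tissue reversed at 5 months (0.80) and at 20 months (0.19). Leaving out 1 sample, values ran from -0.196 to 0.0621 for Dnajb1 and from -0.0567 to 0.112 for Hsf1 in liver, from -0.17 to 0.27 for Hsph1 in adipose tissue, from -0.17 to 0.0548 for Hspd1 in muscle, from -0.16 to 0.25 for Hsp90aa1 between tissues at 20 months, and from -0.87 to 0.0708 for Hspa1a and from -0.51 to 0.29 for Hspb1 in the age difference between tissues.

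Genes called with sample weights were 4454 in liver, 8456 in adipose tissue and 5801 in the difference between tissues, against 2508, 2674 and 1721. In adipose tissue DESeq2 called 4348 and all 27 samples in 1 fit 5270, and no filter gave 1525 there and 1507 in muscle (main 2451). Members called in liver were 2 in DESeq2 and with sample weights, in adipose tissue 4 with sample weights and 0 with no filter, median-of-ratios factors or no variance trend, and in the difference 4 with sample weights and 2 with the replicate block, against 1 each. Other heat-inducible genes lower in liver (1) were 0 with no filter or no variance trend, 3 in edgeR and 4 in DESeq2 or 1 fit of all samples, in adipose tissue (2) 1 with no filter and 4 with sample weights, and in muscle (7) 3 with no filter. A filter on a mean of at least 5 moved the median of all genes between liver and adipose tissue at 5 months from 0.04 to 0.22. The causes were not tested.

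Leaving out 1 sample, genes called ran from 959 to 3557 in liver, 397 to 3748 in adipose tissue, 1158 to 3796 in muscle, 8636 to 9737 and 10106 to 11013 between tissues at 5 and 20 months, and 1054 to 2465 in the difference. Members called ran from 0 to 2, 0 to 1, 5 to 9, 5 to 7 and 1 to 2 (liver, adipose tissue, between tissues at 5 and 20 months, difference), and other heat-inducible genes lower from 0 to 2, 1 to 2 and 3 to 8 in liver, adipose tissue and muscle. The replicate block gave 10647 genes and 8 members between tissues at 5 months and 2067 genes in the difference, and changed no call of a member other than those of Hsp90aa1 and Hspe1. With the pairing kept, an alternative chosen after seeing the data, the 5-month difference in the Hspa1a share (-34.8 percentage points) did not pass the exact permutation test (p = 0.125). No paired analysis was possible for the age comparisons because the ages share no mouse numbers. Depth limits Hspa1a in liver, at 3 to 119 reads.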
